A study of Mus musculus with 12 samples.

Results

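The integrated stress response regulators described here are 10 genes, *Ddit3*, *Atf4*, *Atf5*, *Trib3*, *Asns*, *Sesn2*, *Ppp1r15a*, *Ddit4*, *Nupr1* and *Cebpg*, taken by gene symbol from a table of 45777 genes measured in 12 mouse livers. All 10 were in the table, and all 10 passed the filter on low counts in every comparison. After acetaminophen (APAP), 7 of the 10 rose when both genotype labels were averaged, where 14.1% of the 16509 genes tested were called higher. *Ddit3*, which encodes the transcription factor CHOP, rose 30.7-fold, *Ppp1r15a* 7.81-fold and *Asns* 3.34-fold, and the rises of *Trib3*, *Sesn2*, *Atf4* and *Atf5* lay between 1.52-fold and 2.61-fold. *Nupr1*, *Cebpg* and *Ddit4* did not pass the test. No gene of the 10 was called between the genotype labels, with 3 livers in each group. The intervals of these differences reached -1.77 (*Nupr1*, APAP) and -1.94 (*Ddit4*, vehicle) on the log2 scale, so differences are not excluded. With vehicle, 9 of the 10 intervals included 0, and that of *Ppp1r15a* ran from -1.16 to -0.10 (adjusted p = 0.608, edgeR quasi-likelihood test).

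In the integrated stress response, kinases that each sense a different stress phosphorylate the alpha subunit of the translation initiation factor eIF2. Translation then slows in general, while a few mRNAs with upstream reading frames, that of *Atf4* among them, are translated more, and the ATF4 protein switches on genes of amino acid supply, redox balance and the later cell death program. In hepatocytes APAP is oxidised to a reactive metabolite that uses up glutathione and binds proteins, and stress of the endoplasmic reticulum has been described in the injury that follows. Poly-A RNA-seq measures mRNA levels and shows neither phosphorylation of eIF2 nor translation of ATF4.

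The 12 libraries came from livers of C57BL/6 mice, aged 10 to 12 weeks by the labels and male by the study's methods, with 3 livers in each of 4 groups: WT given vehicle, WT given APAP, Gα12-/- given vehicle and Gα12-/- given APAP. Gα12 is a G protein subunit encoded by *Gna12*, and the WT mice were littermates of the KO mice. Mice were fasted overnight before a single intraperitoneal injection of APAP at 300 mg/kg, and livers were taken after 6 h. The labels name no transgene or Cre driver, and each library was made from whole liver tissue.

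The table held 49737950 to 69566079 counts per liver. *Gna12*, the targeted gene, was counted in all 12 livers, at 54.6 to 67.2 CPM (read counts scaled to library size, after TMM normalization) in the KO-labelled vehicle livers, 43.5 to 48.3 CPM in the KO-labelled APAP livers and 23.7 to 66.7 CPM in the WT livers. Within each treatment its levels overlapped between the labels, so the livers under the KO label are called KO-labelled throughout. The lowest WT values, 34.8 and 23.7 CPM, were those of WT vehicle replicate 2 and WT APAP replicate 1. Of the other WT livers, those given APAP (58.1 and 50.5 CPM) were above every KO-labelled APAP liver. Those given vehicle (66.7 and 63.3 CPM) lay within the KO-labelled vehicle range. For its KO mice the paper shows PCR of tail DNA and of liver *Gna12* mRNA, and immunoblots of Gα12. The deleted part of the gene is not given in the sources used here, and reads from outside that part would not show a deletion. Hepatocyte markers were high in every liver, at a summed 74652 to 151633 CPM over 9 genes. WT APAP replicate 1 stood apart, with erythroid markers at a summed 17362 CPM against 253 to 749 CPM in the other 11 livers, and neutrophil markers at 125 CPM against 1.15 to 21.0 CPM. WT vehicle replicate 2 had 18.0 CPM of neutrophil markers against 1.197 to 2.52 CPM in the other 5 vehicle livers. Among the 10 neutrophil markers, *Mpo* and *Camp* were at 0 in all 12 livers. Values without both of these livers are given beside the results in WT and, for some of the genes, between the labels. For the average only the calls without them are given.

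Because the ATF4 and CHOP proteins act on DNA, the windows around the start sites of the 10 genes (RefSeq, GRCm38.p6, 250 bases before to 50 bases after) were searched on both strands for the CHOP and ATF4 composite element, written as TGATGNAAN, for the cAMP response element TGACGTCA, and for the antioxidant response element core TGACNNNGC. The composite element was found at 3 of the 10 genes, *Asns*, *Nupr1* and *Trib3*, and at 4.5% of all 27025 genes with a window. The cAMP response element was found at 1 gene, *Ppp1r15a*, and at 2.03% of genes. The 4 matches are printed in the direction of the gene, with the matched bases in capitals, to give the letters that the response of these genes can be read beside.
Asns, composite element, chr6:7693210-7693272, minus strand: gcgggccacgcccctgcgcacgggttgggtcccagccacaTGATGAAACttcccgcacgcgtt
Nupr1, composite element, chr7:126625533-126625621, minus strand: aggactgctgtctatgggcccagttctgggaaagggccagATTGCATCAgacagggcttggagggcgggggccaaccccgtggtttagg
Trib3, composite element, chr2:152344029-152344057, minus strand: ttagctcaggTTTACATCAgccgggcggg
Ppp1r15a, cAMP response element, chr7:45526269-45526320, minus strand: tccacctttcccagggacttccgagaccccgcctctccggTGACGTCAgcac

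The *Asns* match began 23 bases before the start site and the *Ppp1r15a* match 12 bases before it, both on the strand of the gene. The *Nupr1* match began 111 bases before the start and the *Trib3* match at base 14 of the transcript, both on the opposite strand. The antioxidant element core was found at 3 of the 10 genes, *Sesn2*, *Asns* and *Ppp1r15a*, and at 14% of all genes. Only its *Sesn2* match is printed, because *Sesn2* encodes an antioxidant protein. *Asns* and *Ppp1r15a* hold matches to the same core, and a link between match and function was not tested.
Sesn2, antioxidant element core, chr4:132510457-132510532, minus strand: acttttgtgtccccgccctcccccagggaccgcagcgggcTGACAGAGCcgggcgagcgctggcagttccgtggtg

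A match is a run of letters, and no binding was measured. *Asns*, *Trib3*, *Ppp1r15a* and *Sesn2* were among the genes that rose, whereas *Nupr1*, which holds the composite element, did not pass the test. *Ddit3*, *Atf4* and *Atf5* rose, and none of these letters lay in their windows.

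Of the 4 genes for zipper transcription factors, *Ddit3*, *Atf4* and *Atf5* rose and *Cebpg* did not pass the test. *Ddit3* (gene 13198, chromosome 10, 127290793 to 127296291, GRCm38) encodes CHOP, the factor that drives the late, cell death part of the response. Its level was 6.03, 9.60 and 5.75 CPM in WT vehicle livers and 223, 223 and 299.9 CPM in WT APAP livers. In KO-labelled livers it was 5.62, 6.34 and 7.14 CPM with vehicle and 110.5, 238 and 167 CPM with APAP. Every APAP liver lay more than 100 CPM above every vehicle liver, and the spread was wider among the KO-labelled APAP livers, with an SD of 63.7 CPM around a mean of 172 CPM, than among the WT ones, with an SD of 44.3 CPM around 249 CPM. In counts, 288 to 458 reads per vehicle liver became 6321 to 18862 reads per APAP liver. The log2 fold change was 5.14 (SE 0.30, 95% interval 4.44 to 5.83, adjusted p = 0.000954) in WT and 4.76 (SE 0.30, interval 4.08 to 5.44, adjusted p = 9.22e-05) under the KO label. In bulk liver RNA, a change in the share of a cell type and a change in RNA per cell cannot be told apart. Without WT APAP replicate 1 and WT vehicle replicate 2, the value in WT was 5.48 (adjusted p = 0.00227).

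*Atf4* (gene 11911, chromosome 15, 80255184 to 80257545) encodes the factor whose translation the response raises. Its mRNA was at 57.6, 142 and 68.8 CPM in WT vehicle livers and at 224, 123 and 214 CPM in WT APAP livers. The KO-labelled livers were at 52.2, 63.7 and 57.7 CPM with vehicle and at 129.7, 195 and 190.2 CPM with APAP. The WT groups overlapped because WT vehicle replicate 2 was above WT APAP replicate 2, whereas the KO-labelled groups did not overlap. *Atf4* rose under the KO label (log2 fold change 1.58, SE 0.18, adjusted p = 0.00134) and in the average of both labels (1.32, SE 0.23, adjusted p = 0.002). In WT the log2 fold change was 1.08 (SE 0.39, interval 0.17 to 1.98) with an adjusted p of 0.2, and without the 2 livers that stood apart it was 1.42 with an adjusted p of 0.0589.

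*Atf5* (gene 107503, chromosome 7, 44812256 to 44816658) encodes a close relative of ATF4 that is controlled by upstream reading frames in the same way and is abundant in liver. It was at 218, 165 and 233 CPM in WT vehicle livers and at 279.7, 346 and 336 CPM in WT APAP livers. The KO-labelled values were 198, 279 and 207 CPM with vehicle and 330.2, 334 and 353 CPM with APAP. The APAP livers all lay above the vehicle livers, the closest pair being 279 CPM in KO-labelled vehicle replicate 2 and 279.7 CPM in WT APAP replicate 1. The change was the smallest of the 7 that passed, with a log2 fold change of 0.61 (SE 0.13, adjusted p = 0.00515) in the average of both labels, 0.58 (SE 0.16, adjusted p = 0.0311) under the KO label and 0.65 (SE 0.21, adjusted p = 0.158) in WT. The call under the KO label was kept in 1 of 6 leave-one-out fits, that without KO-labelled vehicle replicate 2, and the adjusted p in the others ran up to 0.0932. Without the 2 livers that stood apart, the value in WT was 0.60 (adjusted p = 0.0821).

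*Cebpg* (gene 12611, chromosome 7, 35046422 to 35056566) encodes C/EBPγ, a dimer partner of ATF4 on amino acid and glutathione genes. Its level was 46.7, 67.7 and 41.2 CPM in WT vehicle livers and 40.4, 59.0 and 49.9 CPM in WT APAP livers. In the KO-labelled livers it was 45.4, 45.5 and 44.9 CPM with vehicle and 72.9, 45.8 and 55.2 CPM with APAP. The WT groups overlapped, and the KO-labelled groups were parted only by 45.5 CPM with vehicle and 45.8 CPM with APAP. The log2 fold change was -0.05 (interval -0.60 to 0.50, adjusted p = 0.938) in WT and 0.37 (interval -0.03 to 0.76, adjusted p = 0.16) under the KO label. Leaving out both livers that stood apart gave 0.31 in WT (adjusted p = 0.304).

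*Nupr1* (gene 56312, chromosome 7, 126623246 to 126625470) encodes a small stress-induced nuclear protein. It was the weakest of the 10 genes, with 23 to 89 counts per liver. The levels were 0.47, 0.57 and 1.32 CPM in WT vehicle livers and 1.77, 0.82 and 1.35 CPM after APAP. The KO-labelled livers were at 0.39, 0.99 and 0.66 CPM with vehicle and at 1.00, 0.50 and 0.80 CPM with APAP. All groups overlapped. The log2 fold change in the average of both labels was 0.45 (interval -0.30 to 1.21, adjusted p = 0.374), so that a change of up to 1.21 on the log2 scale lay within the interval. In WT it was 0.75 (interval -0.43 to 1.93), and 0.29 (adjusted p = 0.815) without both livers that stood apart.

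Both feedback genes of the group rose. *Ppp1r15a* (gene 17872, chromosome 7, 45522917 to 45526268) encodes GADD34, which brings protein phosphatase 1 to eIF2 and ends the response. Its level was 10.9, 18.1 and 13.0 CPM in WT vehicle livers and 98.0, 60.1 and 110.0 CPM in WT APAP livers. Under the KO label it was 8.04, 11.3 and 7.89 CPM with vehicle and 70.3, 100.2 and 89.1 CPM with APAP. Every APAP liver lay at least 3 times above every vehicle liver. The log2 fold change was 2.69 (SE 0.30, adjusted p = 0.00911) in WT and 3.26 (SE 0.20, adjusted p = 8.91e-05) under the KO label. The WT call was lost without WT vehicle replicate 1 (adjusted p = 0.0566) or without WT vehicle replicate 3 (adjusted p = 0.0619). Without both livers that stood apart it held, at 2.84 (adjusted p = 0.0202).

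*Trib3* (gene 228775, chromosome 2, 152337425 to 152344060) encodes a pseudokinase that is induced by ATF4 and CHOP and restrains both. It was at 16.7, 3.56 and 10.0 CPM in WT vehicle livers and at 30.2, 16.1 and 29.0 CPM in WT APAP livers. The KO-labelled livers were at 6.75, 9.11 and 14.0 CPM with vehicle and at 23.6, 33.9 and 24.6 CPM with APAP. In WT the vehicle livers spread from 3.56 to 16.7 CPM, and the highest of them was above WT APAP replicate 2. *Trib3* rose under the KO label (log2 fold change 1.47, SE 0.27, adjusted p = 0.00735) and in the average of both labels (1.39, SE 0.32, adjusted p = 0.00876). In WT the log2 fold change was 1.32 (SE 0.52, interval 0.12 to 2.52, adjusted p = 0.235), and it was 0.76 (adjusted p = 0.278) without the 2 livers that stood apart.

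Among the effector genes, *Asns* (gene 27053, chromosome 6, 7675165 to 7693209) encodes asparagine synthetase, a classic ATF4 target of amino acid supply. Its level was 3.38, 6.26 and 7.56 CPM in WT vehicle livers and 26.3, 17.7 and 41.8 CPM in WT APAP livers. In KO-labelled livers it was 7.59, 9.42 and 10.1 CPM with vehicle and 23.5, 19.0 and 17.9 CPM with APAP. The APAP livers were above the vehicle livers under both labels, and the KO-labelled livers were less spread out, with an SD of 2.98 CPM after APAP against 12.2 CPM in WT. *Asns* rose in WT (log2 fold change 2.33, SE 0.40, adjusted p = 0.0345) and under the KO label (1.17, SE 0.16, adjusted p = 0.00279). The WT call was kept in 1 of 6 leave-one-out fits, that without WT APAP replicate 2, and the adjusted p in the others was 0.0705 to 0.123. Without the 2 livers that stood apart, the value in WT was 2.45 (adjusted p = 0.0691).

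*Sesn2* (gene 230784, chromosome 4, 132492804 to 132510456) encodes sestrin 2, an antioxidant protein that restrains the growth kinase mTORC1. It was at 15.3, 7.84 and 9.24 CPM in WT vehicle livers and at 13.8, 13.5 and 38.9 CPM in WT APAP livers. The KO-labelled livers were at 5.69, 9.63 and 8.86 CPM with vehicle and at 17.9, 34.95 and 21.8 CPM with APAP. In WT, 2 of the 3 APAP livers were below the highest vehicle liver, and WT APAP replicate 3 stood far above the rest. *Sesn2* rose under the KO label (log2 fold change 1.64, SE 0.28, adjusted p = 0.00602) and in the average (1.33, SE 0.30, adjusted p = 0.00786). In WT the value was 1.04 (SE 0.46, interval -0.03 to 2.11, adjusted p = 0.294), and it was 0.35 without WT APAP replicate 3 and 1.09 (adjusted p = 0.276) without the 2 livers that stood apart.

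*Ddit4* (gene 74747, chromosome 10, 59949675 to 59951770) encodes REDD1, which also restrains mTORC1 and answers to fasting and glucocorticoids as well as to ATF4. Its level was 35.8, 5.85 and 4.29 CPM in WT vehicle livers, and 12.0, 8.10 and 17.3 CPM in WT APAP livers. Under the KO label it was 8.31, 19.4 and 12.6 CPM with vehicle and 12.7, 20.1 and 13.6 CPM with APAP. WT vehicle replicate 1 held the highest level of all 12 livers, so the WT vehicle SD of 17.8 CPM was larger than the group mean of 15.3 CPM. The log2 fold change was -0.29 (interval -2.05 to 1.47, adjusted p = 0.874) in WT and 0.21 (interval -0.47 to 0.90, adjusted p = 0.642) under the KO label. Without WT vehicle replicate 1, the value in WT was 1.30 (adjusted p = 0.239), and without the 2 livers that stood apart it was -0.66 (adjusted p = 0.721).

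**Figure D1:**
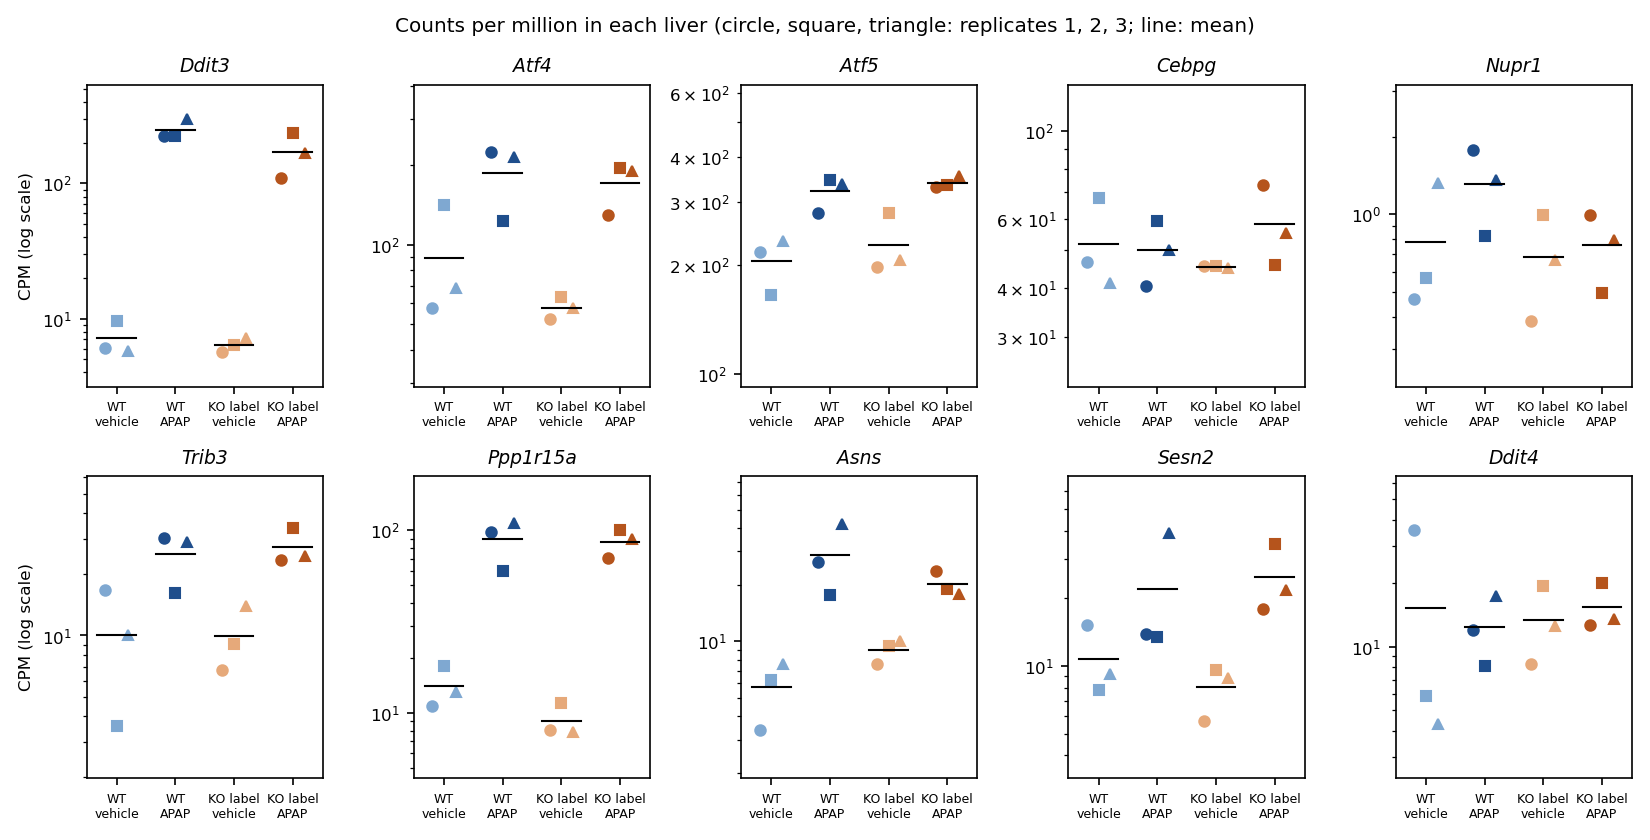
Level of each of the 10 genes in each of the 12 livers, in CPM on a log axis whose range differs between panels. Circles, squares and triangles are replicates 1, 2 and 3, and the line is the mean of the 3 livers. *Ddit3* and *Ppp1r15a* separated vehicle from APAP livers with a wide gap, whereas in WT the vehicle and APAP livers overlapped for *Atf4*, *Trib3*, *Sesn2*, *Cebpg*, *Nupr1* and *Ddit4*.

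Counted together, 3 of the 10 genes were called higher after APAP in WT, *Ddit3*, *Ppp1r15a* and *Asns*, where 1.62% of the 15693 genes tested were called higher. Under the KO label 7 of the 10 were called higher, where 13% of the 15665 genes tested were. In the average of both labels the same 7 genes were called, where 14.1% of 16509 genes were called higher. None of the 10 was called lower in any of these comparisons. The median log2 fold change of the 10 genes in the average was 1.32, beside 0.01 for all genes tested.

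Called by separation alone, 4 of the 10 genes had every WT APAP liver above every WT vehicle liver, as had 12.9% of all genes tested. In the KO-labelled livers 8 of the 10 did, with 21.8% of all genes. Over all 6 APAP and 6 vehicle livers, 4 of the 10 genes, *Ddit3*, *Ppp1r15a*, *Asns* and *Atf5*, did not overlap, with 7.11% of all genes. The 7 calls in the average of both labels held in all 21 alternatives, which were 12 fits without 1 liver each and 9 other settings, the fit without both livers that stood apart among them. The WT count was 1 of 10 without WT vehicle replicate 1 or without WT vehicle replicate 3, and the call of *Ddit3* was the one that held in all 16 alternatives.

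**Figure D2:**
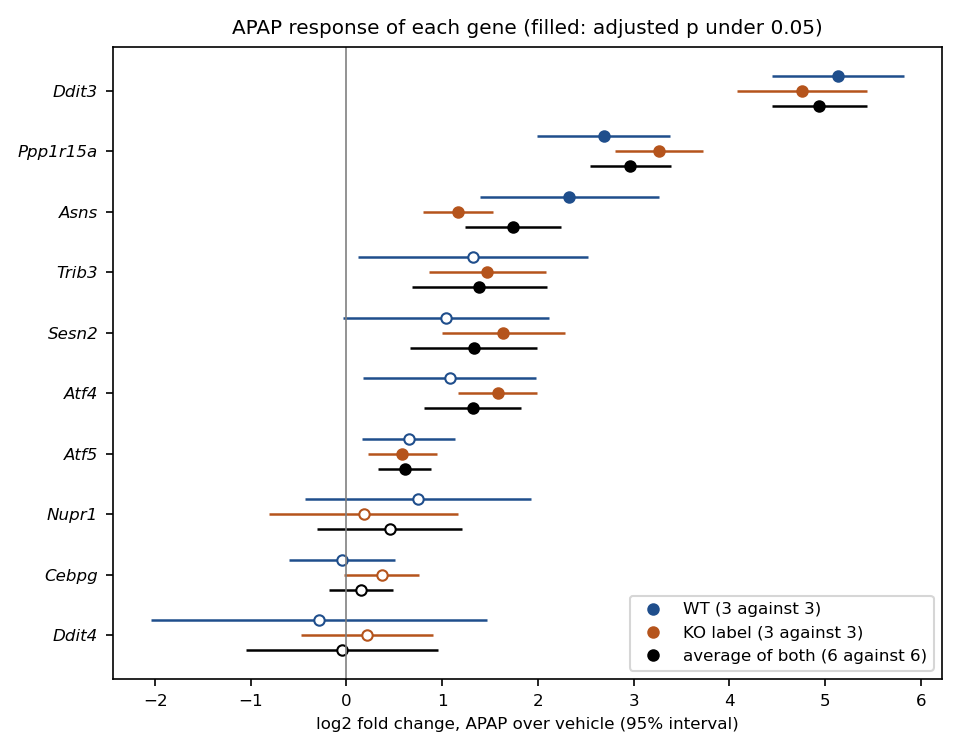
Log2 fold change of each gene, APAP over vehicle, with its 95% interval, in WT (3 livers against 3), under the KO label (3 against 3) and averaged over both (6 against 6). Filled points passed the test at an adjusted p under 0.05. *Ddit3* lay near 5 and *Ppp1r15a* near 3 under both labels, and the WT intervals were wider than the KO-labelled ones for all 10 genes.

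Levels can be compared between genes only per transcript length, for which the deposited TPM values were used. In the 6 vehicle livers, *Atf5* had the highest level, at 193 ± 44.5 TPM (SD), followed by *Atf4* at 67.2 ± 26.3 TPM, and the ranges of these genes overlapped neither each other nor the rest. *Cebpg*, *Ddit4*, *Ddit3*, *Ppp1r15a*, *Trib3*, *Asns* and *Sesn2* followed between 16.5 and 5.70 TPM, and each overlapped its neighbour in the order. *Nupr1* was lowest, at 1.82 ± 0.87 TPM.

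In the 6 APAP livers the order began with *Ddit3* at 369.6 ± 116 TPM, *Atf5* at 313 ± 81.4 TPM and *Atf4* at 171 ± 38.7 TPM, with each of these overlapping the next. *Ppp1r15a* came next at 63.0 ± 15.7 TPM and overlapped neither *Atf4* above it nor *Trib3* below it. *Trib3*, *Asns*, *Cebpg*, *Sesn2* and *Ddit4* lay between 21.4 and 14.1 TPM and overlapped one another in turn. By the mean over both labels, *Ddit3* was thus the fifth of the 10 genes with vehicle and the first after APAP. Within the labels it was the sixth in WT vehicle livers and the first in WT APAP livers, at 406 TPM against 271 TPM for *Atf5*. Under the KO label it was the fifth with vehicle and the second after APAP, at 333 TPM after APAP against 355 TPM for *Atf5*, and the 2 genes overlapped in both APAP groups. Of the summed TPM of the 10 genes, *Ddit3* made up 2.12% to 3.15% in vehicle livers and 26.3% to 43.4% in APAP livers, and *Atf5* made up 42.6% to 65.1% and 24.9% to 39.2%. The sum itself was 253 to 393 TPM in vehicle livers and 617 to 1211 TPM in APAP livers. The lowest APAP sum was that of WT APAP replicate 1, the liver with the high erythroid markers, whose part in it was not tested. In CPM that liver was the highest of the 6 APAP livers for *Atf4* and *Nupr1* and the lowest for *Atf5* and *Cebpg*.

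**Figure D3:**
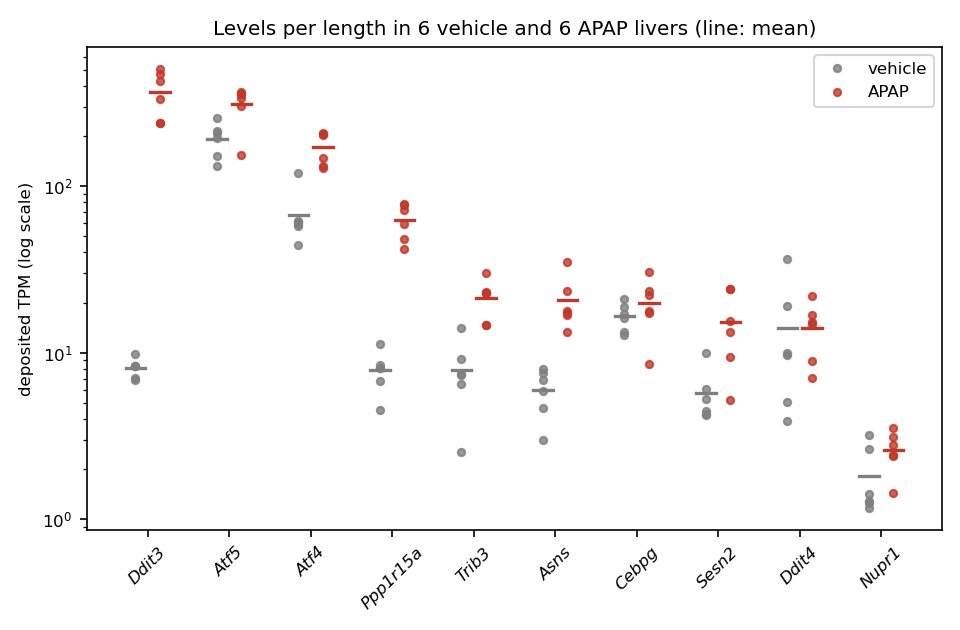
Level per transcript length of each gene in the 6 vehicle livers (grey) and the 6 APAP livers (red), in deposited TPM on a log axis, with the mean as a line. Genes are ordered by their mean after APAP. *Ddit3* moved from 6.89 to 9.83 TPM with vehicle to at least 239.99 TPM with APAP, and its mean over the 6 APAP livers was above those of *Atf5* and *Atf4*, although in the KO-labelled APAP livers the mean of *Atf5* was higher.

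The livers of one group did not carry the response to the same degree. Of the 6 APAP livers, WT APAP replicate 3 had the highest CPM for 4 of the 10 genes, *Ddit3*, *Asns*, *Sesn2* and *Ppp1r15a*. WT APAP replicate 2 had the lowest for 6 genes, *Atf4*, *Trib3*, *Asns*, *Sesn2*, *Ppp1r15a* and *Ddit4*, yet its *Ddit3* level and that of WT APAP replicate 1 were both 223 CPM. The lowest *Ddit3* level after APAP was in KO-labelled APAP replicate 1, at 4.03 above the vehicle mean on the log2 scale, and the highest was in WT APAP replicate 3, at 5.47. Of the 6 vehicle livers, WT vehicle replicate 2 had the highest CPM for *Ddit3*, *Atf4*, *Ppp1r15a* and *Cebpg* and the lowest for *Atf5* and *Trib3*. That liver also had the highest neutrophil markers of the vehicle livers, whose part in these values was not tested. WT vehicle replicate 1 was highest for *Trib3*, *Sesn2* and *Ddit4* and lowest for *Asns*.

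**Figure D4:**
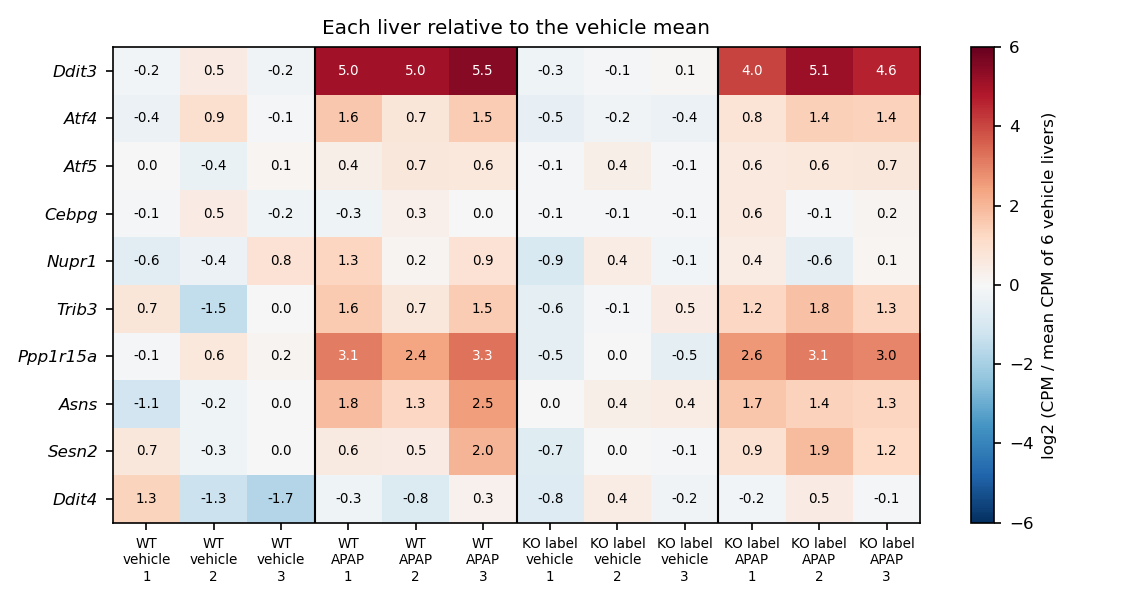
Each liver relative to the mean of the 6 vehicle livers, as log2 of the ratio of CPM values, for the 10 genes (rows) and 12 livers (columns). Red is above and blue below the vehicle mean. The row of *Ddit3* reached 4.0 to 5.5 in the APAP livers and the row of *Ppp1r15a* 2.4 to 3.3, while the WT vehicle columns varied among themselves from -1.74 to 1.32 in *Ddit4*.

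The study set KO mice beside WT mice to ask whether Gα12 alters the response to APAP. After APAP, 0 of the 10 genes were called between the KO label and WT by the edgeR quasi-likelihood test, and 0 had an unadjusted p under 0.05. Of all 16174 genes tested 0.0309% were called, and DESeq2 also called 0 of the 10. The largest differences, KO label minus WT, were a log2 fold change of -0.80 (interval -1.77 to 0.18) for *Nupr1*, -0.55 (interval -1.21 to 0.12) for *Ddit3* and -0.52 (interval -1.21 to 0.17) for *Asns*, each with an adjusted p of 0.958. For *Ppp1r15a* the difference was -0.06 (interval -0.65 to 0.53), for *Atf4* -0.14 (interval -0.78 to 0.50) and for *Atf5* 0.07 (interval -0.33 to 0.47). All 10 genes overlapped between the labels, while 8.73% of all genes tested did not. The intervals of the 10 genes lay between -1.77 and 1.18 on the log2 scale, and each included 0. Without WT APAP replicate 1 and WT vehicle replicate 2, the differences were -0.51 for *Nupr1*, -0.61 for *Ddit3* and -0.57 for *Asns*, and 0 of the 10 were called.

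With vehicle, 0 of the 10 genes were called between the labels by the same test, where 0.0262% of 15262 genes were, and DESeq2 called 0. *Ppp1r15a* alone had an unadjusted p under 0.05 by edgeR, with an adjusted p of 0.608 and a log2 fold change of -0.63 (SE 0.23, interval -1.16 to -0.10). *Asns* alone did not overlap, at 7.59 to 10.1 CPM under the KO label and 3.38 to 7.56 CPM in WT, while 14% of all genes tested did not overlap. Its log2 fold change was 0.65 (SE 0.29, adjusted p = 0.655). For *Atf4* the difference was -0.63 (interval -1.36 to 0.11), and it was -0.12 without WT vehicle replicate 2. Without both livers that stood apart, *Ppp1r15a* was at -0.39 and *Asns* at 0.73, and neither was called.

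Whether APAP acted differently under the labels was tested as an interaction over all 12 livers, given as the log2 effect of APAP under the KO label minus that in WT. None of the 10 genes was called, nor was any gene of the 16509 tested (0%), while DESeq2 called 0 of the 10 and 9 of all genes. An unadjusted p under 0.05 was found for 848 of all genes and for 1 of the 10, *Asns*, whose interaction was -1.16 (SE 0.45, interval -2.15 to -0.17, adjusted p = 0.872). Over its alternatives the *Asns* value ran from -1.43 to -0.78, with an adjusted p of at least 0.636. For *Ddit3* the interaction was -0.37 (interval -1.22 to 0.48), for *Ppp1r15a* 0.58 (interval -0.21 to 1.37), for *Atf4* 0.50 (interval -0.50 to 1.51) and for *Sesn2* 0.60 (interval -0.71 to 1.90). Thus, although more of the genes passed the test under the KO label than in WT, no difference between the labels was detected.

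The genes around the 10 regulators were described in 5 lists. Their counts stand beside 2334 higher and 1829 lower of all 16509 genes tested in the average (14.1% higher). For the labels apart, the shares were 1.62% higher in WT and 13% higher under the KO label. Apart from the lower genes marked as such, the genes named from each list were the 5 with the smallest p in the average. They were picked by that p and need not be typical of their list. The list of ATF4 and CHOP target genes outside the 10 held 35 tested genes, of which 26 were higher and 2 lower in the average of both labels, with a median log2 fold change of 0.96. *Psat1*, an enzyme of serine synthesis, rose by 4.81 (SE 0.35, adjusted p = 6.13e-06), from 0.35 to 1.62 CPM with vehicle to 13.1 to 41.9 CPM. *Mthfd2*, the mitochondrial folate enzyme, rose by 3.76 (SE 0.33) and *Hmox1*, heme oxygenase 1, by 5.38 (SE 0.42). *Sars*, the seryl-tRNA synthetase, and *Slc3a2*, the shared subunit of amino acid exchangers, rose by 1.21 (SE 0.10) and 1.48 (SE 0.14). The 2 lower genes, named after their values were seen, were the folate enzyme gene *Shmt2* (-0.47, adjusted p = 0.00676) and the lipoprotein receptor gene *Vldlr* (-1.14, adjusted p = 0.00868). In WT 11 of 35 were higher and 0 lower, and under the KO label 28 of 34 were higher and 0 lower.

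Of the 18 tested genes for basic leucine zipper partners of ATF4 and CHOP, 11 were higher and 0 lower in the average, with a median of 0.73. *Atf3*, itself an ATF4 target, rose from 0.45 to 3.62 CPM with vehicle to 494 to 671 CPM (log2 fold change 9.27, SE 0.48). *Jun* rose by 6.71 (SE 0.39) and *Fos* by 6.93 (SE 0.68), both immediate early genes of the AP-1 factor, and *Jund* and *Fosl2* of the same factor rose by 2.55 and 2.49. In WT 4 of 17 were higher, and under the KO label 11 of 17 were higher and 1 lower.

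Of the 20 tested genes of the eIF2 machinery, 7 were higher and 2 lower, with a median of 0.07. *Eif2ak3*, which encodes PERK, the eIF2 kinase of the endoplasmic reticulum, rose by 1.598 (SE 0.15, adjusted p = 3.55e-05), from 10.2 to 15.7 CPM with vehicle to 27.3 to 49.1 CPM. *Eif2ak4*, which encodes the amino acid sensor GCN2, rose by 0.74 (SE 0.13), and *Impact*, which encodes an inhibitor of GCN2, rose by 1.68 (SE 0.12). The eIF2 subunit gene *Eif2s2* and the exchange factor gene *Eif2b3* rose by 0.67 and 0.66. The 2 lower genes, named after their values were seen, were the phosphatase gene *Ppp1cc* (-0.38, adjusted p = 0.0118) and the mitochondrial protease gene *Oma1* (-0.35, adjusted p = 0.0167). In WT 2 of 20 were higher and 0 lower, and under the KO label 7 of 20 were higher and 0 lower. The 2 of 20 lower in the average were close to the 1829 of 16509 for all genes, so that count is not a result about the list.

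The target genes of ATF6 and XBP1, the other arms of the response to endoplasmic reticulum stress, numbered 21, of which 3 were higher and 1 lower, with a median of 0.20. *Hspa5*, the chaperone BiP (GRP78), rose by 1.75 (SE 0.14, adjusted p = 1.42e-05), from 342 to 524 CPM with vehicle to 1209.9 to 1746 CPM. The co-chaperone gene *Dnajb9* rose by 1.26 (SE 0.19) and *Ern1*, which encodes the stress sensor IRE1, by 0.88 (SE 0.24), while *Edem1* fell by 0.44 (SE 0.15). *Atf6* itself was at 0.34 (SE 0.12, adjusted p = 0.0648). In WT 1 of 21 was higher, and under the KO label 4 were higher and 1 lower. The 3 of 21 in the average were close to the 14.1% of all genes called higher, so the count is not a result about the list.

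Of 7 relatives of the regulators, 2 were higher and 0 lower in the average. *Trib1*, of the Tribbles family of *Trib3*, rose by 2.31 (SE 0.23), and *Ddit4l*, the relative of *Ddit4*, rose by 1.53 (SE 0.44) at a level under 1 CPM. *Sesn1*, the relative of *Sesn2*, was at -0.38 (adjusted p = 0.242), *Trib2* at 0.48 (adjusted p = 0.207) and *Cebpz* at 0.34 (adjusted p = 0.0662). In WT 1 of the 7 was higher and under the KO label 3 were, and 7 genes are too few to read the 2 of 7 in the average against the 14.1% of all genes.

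**Figure D5:**
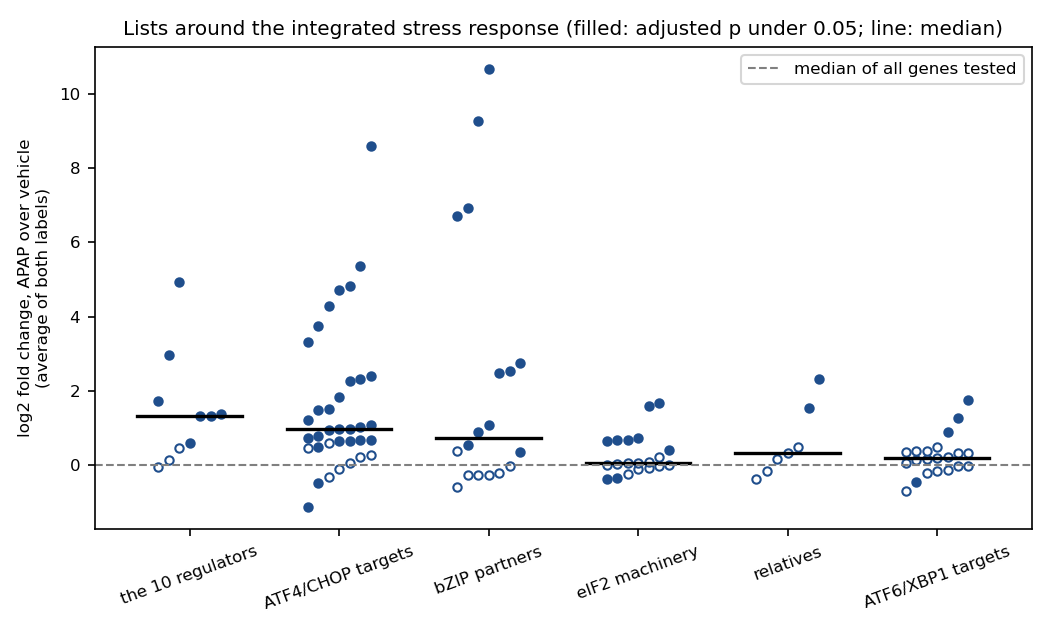
Log2 fold change of each tested gene, APAP over vehicle in the average of both labels, for the 10 regulators and the 5 lists around them. Filled points passed the test, the solid line is the median of a list and the dashed line the median of all genes tested, at 0.01. The ATF4 and CHOP targets and the zipper partners held genes above 5, whereas most genes of the eIF2 and the ATF6 and XBP1 lists lay near 0.

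Markers of other cell types moved with APAP in part. Their counts of genes called higher in the average stand beside 14.1% of all 16509 genes tested. These lists are too short to be read against that share. The summed neutrophil markers were 11.7, 21.0 and 125 CPM in the WT APAP livers and 1.15 to 8.05 CPM in the KO-labelled APAP livers, and 1 of the 5 tested neutrophil genes was called in the average. For macrophage markers the sums were 131 to 207 CPM with vehicle and 116 to 273 CPM with APAP in WT, and 165 to 283 CPM and 138 to 193 CPM under the KO label, with 1 of 10 genes called. Platelet markers were at a summed 21.9 CPM in WT APAP replicate 1 and at 2.75 to 5.14 CPM in the other 11 livers, with 2 of 3 tested genes higher in the average and a median log2 fold change of 1.93. The sinusoidal endothelial sums were 144 to 250 CPM over the 12 livers. In the average 2 of 6 genes were higher, *Lyve1* by 1.09 and *Pecam1* by 0.41. The list as a whole did not move, as 50% of its genes had a positive log2 fold change and the median was 0.005. Under the KO label 1 of the 6 was higher and 1 lower, with a median of -0.21. Of the erythroid markers 0 of 6 tested and of the lymphocyte markers 0 of 8 were called in the average by edgeR. Of the hepatocyte markers 0 of 9 were called in the average by edgeR. Stellate cell markers were at a summed 196 to 272 CPM in the KO-labelled vehicle livers and 167 to 168 CPM in the KO-labelled APAP livers. In WT the sums went the other way, from 138 to 163 CPM with vehicle to 326, 165 and 181 CPM with APAP. The 326 CPM was that of WT APAP replicate 1, which stood apart. Under the KO label 3 of 7 stellate genes were lower, where 1504 of 15665 genes tested were. In WT 0 of 7 were called, and in the average 1 of 7 was lower, where 1829 of 16509 genes were. The part of these cells in the levels of the 10 genes was not tested.

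For each regulator, the gene with the most similar profile over the 12 livers was found as the smallest root mean square difference between scaled log2 CPM values among 10891 genes. It was *Zfand5* for *Ddit3* (0.12 SD units), *Chka* for *Ppp1r15a* (0.15), *H3f3b* for *Atf4* (0.18) and *Gtf2ird1* for *Atf5* (0.29). It was *Tmem251* for *Asns* (0.31), *Csnk1e* for *Trib3* (0.34), *Nrn1* for *Cebpg* (0.35) and *Sertad2* for *Sesn2* (0.36), and the least alike were *Nfkbia* for *Ddit4* (0.55) and *Creb3* for *Nupr1* (0.57). Within the 10, the most alike were *Ddit3* and *Ppp1r15a* (0.20). The nearest of the others to *Cebpg* was *Atf4*, at 1.15, the widest such distance. These distances describe 12 livers that share their treatment groups.

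Of the regulators, 5 overlap a gene on the opposite strand, and the sources used here do not give the strand setting of the counting. *Ddit3* shares 77 bases with *Mbd6*, at 1462 to 4014 counts a liver, and 71 bases with *Mars1*, at 2011 to 5297 counts. *Atf5* shares 571 bases with *Nup62*, at 416 to 1262 counts, and 289 bases with *Il4i1b*. *Ppp1r15a*, *Cebpg* and *Nupr1* overlap *Tulp2*, *Gm45095* and *Gm39087*, which had at most 23, 8 and 0 counts. No other annotated transcript matched a regulator closely enough, at 93% identity over 100 bases, to share its reads.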

How the data were processed

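Liver poly-A RNA from 12 mice was sequenced with a stranded kit as paired-end reads, with 3 separate livers in each group, and groups were taken from the sample titles. The authors deposited 1 table with raw read counts per gene, FPKM values (scaled to length and library size) and TPM values, which were used before the logarithm and quantile scaling that the study applied. The submitters' processing notes name FastQC 0.11.7, Trimmomatic 0.38, HISAT2 2.1.0, Bowtie2 2.3.4.1 and StringTie 2.1.3b with the build mm10 (GRCm38), without their roles. How counts were assigned to genes is not given in the sources used here. FPKM values were not used.

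Counts were filtered with filterByExpr, scaled by TMM and fitted in edgeR 4.0.16 (R 4.3.3, glmQLFit in its legacy form), whose quasi-likelihood F test gave the p-values. These were adjusted by Benjamini-Hochberg across every gene that passed the filter, and called at 0.05. Comparisons of 2 groups used their 6 livers, and the average and the interaction used all 12. The average weights both labels equally. SEs are the log2 fold change divided by the root of F, and 95% intervals use the residual degrees of freedom after moderation. The fits were tested on simulated data. Alternatives were DESeq2 1.42.0, limma 3.58.1 on log2 TPM, other filters and scalings, a replicate block and leaving out livers. A count of 0 was read as at most 3 counts, a bound that covers counting error only. The p-values set each difference against the spread between these livers, moderated across genes. No 2 libraries of a group agreed within sampling noise.

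The 10 genes and all lists were chosen with earlier results of these data known. Named were the 10 genes, *Gna12*, the 5 genes of each list with the smallest p in the average, the nearest profile of each regulator, and markers that moved with a result. *Gcn1l1*, *Mars1* and *Tf* of the lists had no row under that symbol. The counts of *Mars1* beside *Ddit3* were found by gene number, but *Mars1* was left out of the ATF4 and CHOP target list.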

Additional observations from a re-analysis of the deposited data

How the results depend on the processing

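In the average of both labels, 7 of the 10 genes were called under all 21 alternatives. In WT the count of 3 of 10 became 1 with the replicate block, and 1 to 3 when 1 liver was left out. For the KO label the count of 7 was 5 with all 12 livers in one fit, which lost *Atf5* and *Trib3*, and 6 or 7 otherwise. No gene of the 10 was called between the labels or in the interaction under any alternative run. Over all genes, the 322 called in WT became 1413 with DESeq2, 1523 with all 12 livers in one fit, 62 with the replicate block, 631 without both livers that stood apart and 41 to 442 without 1 liver. The 3538 under the KO label became 2249 with all 12 livers in one fit and 1995 to 3368 without 1 liver. The 5 between labels after APAP became 29 with DESeq2, 1 with at least 10 counts in every library, 0 with all 12 livers in one fit, 1 with the replicate block and 1 to 7 without 1 liver. The 4 with vehicle became 137, 0 with all 12 livers, 0 with the block and 0 to 16 without 1 liver. The 0 of the interaction became 9 with DESeq2 and 0 to 2 without 1 liver. The causes were not tested. Replicate numbers did not pair the livers: the 18 same-number correlations of deviations from the group means ran from -0.239 to 0.0913.

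Of 1050 values of single genes under alternatives, 67 changed sign, all in differences that had not passed the test. With the replicate block, *Ddit4* was 0.32 in WT, 0.059 in the average and 0.505 between labels with vehicle, where *Trib3* was 0.18. With limma on log2(TPM + 1), *Ddit4* was 0.16 in WT, 0.16 in the average, 0.31 between labels with vehicle and -0.010 in the interaction, *Atf5* was 0.059 in the interaction, *Trib3* was 0.10 between labels with vehicle, and *Atf4* and *Ppp1r15a* were 0.074 and 0.11 between labels after APAP. With log2(TPM + 0.1) these values were 0.22, 0.20, 0.38, -0.052, 0.059, 0.14, 0.074 and 0.11. Without both livers that stood apart, *Cebpg* was 0.31 in WT and 0.051 between labels with vehicle, where *Ddit3* was 0.12, and after APAP *Sesn2*, *Atf5*, *Atf4* and *Ppp1r15a* were -0.071, -0.012, 0.025 and 0.023. Without 1 liver, the ranges in WT were -0.21 to 0.18 for *Cebpg* and -0.75 to 1.30 for *Ddit4*. In KO-labelled livers they were -0.024 to 0.57 for *Ddit4* and -0.095 to 0.55 for *Nupr1*, and in the average -0.27 to 0.76 for *Ddit4*. In the interaction they were -0.17 to 0.11 for *Atf5*, -1.10 to 0.94 for *Ddit4* and -0.43 to 0.55 for *Trib3*. Between labels after APAP they were -0.37 to 0.027 for *Atf4*, -0.012 to 0.13 for *Atf5*, -0.28 to 0.11 for *Ppp1r15a*, -0.16 to 0.85 for *Sesn2* and -0.13 to 0.28 for *Trib3*. With vehicle they were -0.023 to 0.25 for *Atf5*, -0.33 to 0.051 for *Cebpg*, -0.29 to 0.12 for *Ddit3*, -0.63 to 1.40 for *Ddit4*, -0.59 to 0.39 for *Nupr1* and -0.42 to 0.54 for *Trib3*.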
